A study of Mus musculus with 36 samples.

Results

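The genes described here are 7 members of the Slc22 family of organic ion transporters: Slc22a7, Slc22a3, Slc22a18, Slc22a23, Slc22a27, Slc22a28 and Slc22a30. They were found by their symbols among the 49315 genes of a table of liver RNA, in which 25 genes carry an Slc22a symbol. Slc22a7 was chosen by its TPM, much lower in W/W mice given T0901317 than in W/W mice given vehicle, so that difference is given as a description and not as a test. The members as a set were chosen with earlier results of these data known. PolyA RNA came from 36 livers, 4 in each of 9 groups, of male mice that were 11 to 12 weeks old. All mice carry the gene for LXRalpha, the liver X receptor that oxidised cholesterol activates in hepatocytes, either unaltered or edited by CRISPR so that tryptophan (W) at residue 441 is phenylalanine (F). The genotypes are W/W (homozygous control), W/F (heterozygous) and F/F (homozygous mutant). In the chow groups the mice of each genotype ate normal chow and belonged to an independent cohort. In the vehicle and T0901317 groups they ate a diet rich in fat and cholesterol (Teklad TD.96121) that promotes metabolic dysfunction-associated steatohepatitis (MASH) for 4 weeks, and in the last 2 weeks received either vehicle or the synthetic LXR agonist T0901317 by daily oral gavage at 10 mg/kg. A diet comparison therefore also compares cohorts, and the diet and the cohort cannot be told apart. The number of founder animals behind the edit is not given in the sources used here.

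Slc22 carriers span the membrane many times and move small charged molecules, many of them drugs and metabolites, across the plasma membrane. In the liver several of them sit on the blood-facing surface of hepatocytes and take up compounds that are then metabolised or passed into bile. Slc22a7 encodes the organic anion transporter OAT2, and Slc22a3 encodes the organic cation transporter OCT3. Slc22a18 is an imprinted gene and Slc22a23 a widely expressed member, both without a well established substrate. Slc22a27, Slc22a28 and Slc22a30 belong to a cluster of closely related organic anion transporter genes that rodents have expanded.

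Values are TPM, a level corrected for gene length and library total, so levels of different genes may be compared. All 7 genes reached 1 TPM in 4 or more libraries, the condition that left 16638 genes for testing. Differences are fitted differences of log2(TPM + 1), which understate changes of low genes, and "called" means a limma p under 0.05 after Benjamini-Hochberg adjustment across the 16638 genes of that comparison. Steps between low TPM values gave a depth of 18.1 to 35.8 M reads per library (median 23.9). The median difference of all genes was 0.39 (log2) with the MASH diet in W/F, 0.32 with it in F/F, -0.49 with T0901317 in W/F and -0.24 with T0901317 in F/F. After rescaling of every library by a median of ratios (13950 genes, each set against its geometric mean), these medians were 0.0037, 0.03, -0.04 and -0.02. Changes are given on the deposited scale. The rescaled value is given where it ends a call or turns a difference called on either scale. Rescaling also started 14 calls of members in the same direction, and only some of these are given.

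Markers of some other liver cells moved with the groups. The 6 cholangiocyte markers summed to 54.1 to 61.6 TPM in W/W vehicle, 1168 to 1597 in W/F vehicle and 2922 to 3568 in F/F vehicle livers, against 94.5 to 170, 103 to 278 and 761 to 1708 with T0901317. The 6 macrophage markers summed to 95.7 to 124 TPM in W/W vehicle, 664 to 1095 in W/F vehicle and 855 to 1103 in F/F vehicle livers. The 6 endothelial markers did not share this pattern, at 67.2 to 77.6, 46.1 to 64.8 and 65.2 to 104 TPM in these groups. The 6 hepatocyte markers summed to 67043 to 88287, 58327 to 65933 and 35407 to 38952 TPM in the same groups. All markers of these lists were detected. The 4 kidney tubule markers summed to at most 0.156 TPM in any library, with Kap at 0 throughout. The part of such shifts in the results below was not tested, and in whole liver fewer cells of a type and less RNA per cell cannot be told apart.

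Slc22a7 (chr17:46432183-46438457, minus strand, GRCm38) was high in some groups and low in others, and T0901317 went with a low level in W/W and with a higher level in W/F. In W/W livers it stood at 70.2, 57.8, 31.6 and 61.5 TPM with vehicle and at 4.5, 1.83, 3.85 and 3.17 TPM with T0901317. Every T0901317 liver lay below every vehicle liver, and the mean was 16.6-fold lower (3.34 ± 1.14 against 55.3 ± 16.6 TPM, SD, n = 4 each). The fitted difference was -3.68 (SE 0.28), with no test for the reason given above. In W/F livers Slc22a7 stood at 5.21, 2.46, 1.62 and 3.02 TPM with vehicle and at 31.1, 18.5, 32.7 and 34.5 TPM with T0901317. Here the order was the opposite, with every T0901317 liver above every vehicle liver. Slc22a7 rose 9.49-fold by mean TPM with T0901317 in W/F, a fitted 2.92 (SE 0.28, limma adjusted p = 5.22e-10). In F/F livers it stood at 1.70, 3.38, 2.78 and 1.19 TPM with vehicle and at 4.80, 4.88, 4.23 and 6.52 TPM with T0901317. The groups again did not overlap, but both were low. The F/F rise was 2.26-fold, a fitted 0.94 (SE 0.28, limma adjusted p = 0.00974), and was not called on recovered read numbers with voom (1.36, limma adjusted p = 0.0716). The rise was smaller in F/F than in W/F (difference of responses -1.98, SE 0.39, limma adjusted p = 0.000999). Against the W/W response the W/F response differed by 6.60 and the F/F response by 4.63, both untested. Over the same W/F comparison the summed cholangiocyte markers were lower with T0901317 and in W/W they were higher, as given above, while the summed hepatocyte markers overlapped in W/W (72198 to 82817 TPM with T0901317) and in W/F (50315 to 73021 TPM). In F/F they did not overlap, at 35407 to 38952 TPM with vehicle and 51304 to 67314 TPM with T0901317, over the comparison in which Slc22a7 and Slc22a30 rose, and the part of that shift in either rise was not tested.

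**Figure D1:**
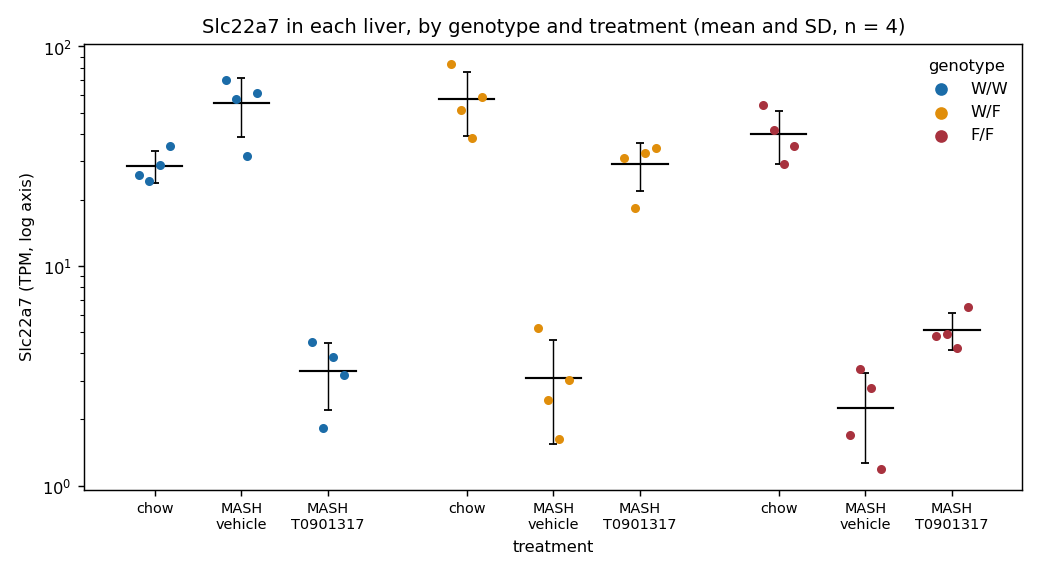
Slc22a7 in each of the 36 livers as TPM on a log axis, by genotype (colour) and treatment (x axis). Points are livers, long bars the mean and error bars the SD of 4 livers. The W/W T0901317, W/F vehicle, F/F vehicle and F/F T0901317 livers all lie at or below 6.52 TPM, and all livers of the other 5 groups lie at or above 18.5 TPM.

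The MASH diet went with a large loss of Slc22a7 in both mutant genotypes. W/F chow livers held 83.0, 51.3, 38.3 and 58.7 TPM, and Slc22a7 fell 18.8-fold by mean with the diet and vehicle (-3.87, SE 0.28, limma adjusted p = 9.16e-13). F/F chow livers held 54.4, 41.7, 29.1 and 35.1 TPM, and Slc22a7 fell 17.7-fold (-3.67, SE 0.28, limma adjusted p = 1.1e-11). The W/F and F/F falls were not shown to differ (0.20, SE 0.39, limma adjusted p = 0.828). In W/W the diet and vehicle went with a mean of 55.3 TPM against 28.6 ± 4.74 TPM on chow (25.9, 24.5, 28.8 and 35.2 TPM), a fitted 0.88 (SE 0.28). One W/W vehicle liver, at 31.6 TPM, lay within the chow range, and no test is given because the W/W vehicle livers took part in the choice of the gene. The diet and T0901317 comparisons of a genotype share their 4 vehicle livers. The summed cholangiocyte markers were 57.5 to 175 TPM in W/F chow and 724 to 985 TPM in F/F chow livers, and the summed hepatocyte markers 56393 to 90347 and 64441 to 85744 TPM.

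On chow the genotypes were closer. W/F livers averaged 57.8 ± 18.8, F/F livers 40.1 ± 10.8 and W/W livers 28.6 ± 4.74 TPM of Slc22a7 (SD, n = 4 each). All W/F chow livers lay above all W/W chow livers, yet the difference of 0.95 was not called (SE 0.28, limma adjusted p = 0.196). F/F chow livers overlapped with W/W (0.45, limma adjusted p = 0.182) and with W/F (-0.50, limma adjusted p = 0.146), the latter difference being called after rescaling (-0.84, limma adjusted p = 0.0301). With vehicle F/F and W/F overlapped (-0.30, limma adjusted p = 0.47). With T0901317, Slc22a7 was 5.72-fold lower in F/F than in W/F (-2.28, SE 0.28, limma adjusted p = 1.01e-07), with no overlap. Ordered by mean, the groups ran W/F chow, W/W vehicle, F/F chow, W/F T0901317 and W/W chow, with each neighbour overlapping the next. A gap without overlap then led to F/F T0901317, W/W T0901317, W/F vehicle and F/F vehicle, which overlapped in turn. The F/F vehicle livers, the lowest group, had 24 to 62 recovered reads of Slc22a7 each.

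The genes whose log2(TPM + 1) followed Slc22a7 most closely over the 36 livers were Nat8f1, an N-acetyltransferase family member (Pearson r = 0.943), and Serpina1c, an alpha-1-antitrypsin gene (0.941). Il1rap, the accessory chain of the interleukin-1 receptor, had r = 0.917. Cyp4f14, a cytochrome P450, had r = 0.913. These values describe likeness over livers that share the same 9 groups.

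Slc22a28 (chr19:8062209-8131982, minus strand) and Slc22a30 (chr19:8335371-8405111, minus strand) were the members that moved most like each other (r = 0.954 over 36 livers). Their coding sequences, both 1659 bases long in GENCODE M21, differ at 20 bases (98.8% identical), and the longest stretch without a difference runs over 431 bases. Of the 50-base windows of the coding sequence 50.8% hold no difference. How reads that match both genes were counted is not given in the sources used here, so the split between these genes is uncertain. Over all exons, 53.9% of the 50-base windows of Slc22a28 and 34.2% of those of Slc22a30 also occur in another gene. The other windows occur in no other gene, so reads outside the coding sequence can also tell these genes apart. The stretch of the coding sequence with most differences is bases 610 to 729, counted from the first base of the start codon. Its 4 differing bases are in capitals, because within the coding sequence only reads over differing bases tell the genes apart.
Slc22a28: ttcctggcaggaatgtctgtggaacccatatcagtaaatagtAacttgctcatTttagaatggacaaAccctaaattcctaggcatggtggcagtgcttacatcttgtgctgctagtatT
Slc22a30: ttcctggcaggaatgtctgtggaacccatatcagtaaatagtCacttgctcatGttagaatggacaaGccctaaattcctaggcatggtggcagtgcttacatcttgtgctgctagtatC
The 250 bases before the start of each gene (RefSeq, GRCm38.p6, chr19:8131983-8132232 and chr19:8405106-8405355, minus strand, written 5′ to 3′ on that strand) are shown because the genes moved together. The starts used are those of RefSeq. For Slc22a30 the start differs from the GENCODE position given above, so the last bases of its stretch lie inside the gene as placed there. Capitals mark bases that differ or have no partner in the other entry.
Slc22a28: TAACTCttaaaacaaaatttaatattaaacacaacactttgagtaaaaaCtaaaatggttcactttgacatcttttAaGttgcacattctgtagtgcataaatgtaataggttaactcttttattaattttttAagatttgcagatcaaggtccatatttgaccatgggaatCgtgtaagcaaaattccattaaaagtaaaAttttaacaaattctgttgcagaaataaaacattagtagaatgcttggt
Slc22a30: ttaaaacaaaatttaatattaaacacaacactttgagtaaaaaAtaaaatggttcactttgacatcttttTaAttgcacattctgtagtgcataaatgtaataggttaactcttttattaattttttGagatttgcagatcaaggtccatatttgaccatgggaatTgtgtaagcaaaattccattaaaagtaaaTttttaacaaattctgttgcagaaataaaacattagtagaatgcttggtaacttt
Over the whole entries of 300 bases, which hold 50 bases after the start, 288 of 294 aligned bases were identical (98.0%). Entries of other pairs among the 6 members in the table (Slc22a7 is not among them) were 54.5% to 64.3% identical over their aligned bases. These numbered from 36 to 273, and the highest value, of Slc22a23 with Slc22a30, rests on 42 aligned bases. The nuclear receptor half-site AGGTCA, searched on both strands, occurred in 1 of these 6 entries, that of Slc22a27, and in 16.3% of all 32851 entries. The direct repeats DR4 (0.0152% of entries) and DR1 (0.0396%), which hold that half-site as a pair spaced by 4 bases or by 1, occurred in none of the 6.

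Slc22a28 and Slc22a30 were highest on chow and fell steeply with the MASH diet in the mutants. In W/F livers Slc22a28 stood at 28.6, 30.1, 29.9 and 29.8 TPM on chow, at 1.41, 0.352, 0.174 and 0.256 TPM with vehicle and at 3.75, 1.53, 9.94 and 10.2 TPM with T0901317. Slc22a28 fell with the diet in W/F (-4.37, SE 0.36, limma adjusted p = 1.28e-11) and rose with T0901317 (2.06, SE 0.36, limma adjusted p = 1.03e-05), with no overlap in either comparison but 1.41 and 1.53 TPM as neighbouring values. In F/F livers it stood at 17.7, 12.0, 4.24 and 8.77 TPM on chow, at 0.0567, 0.345, 0.0569 and 0.310 TPM with vehicle and at 0.437, 0.550, 0.396 and 0.138 TPM with T0901317. The F/F vehicle level rests on 14 recovered reads in 4 livers (exact 95% Poisson interval 7.65 to 23.5, counting error only). Slc22a28 fell with the diet in F/F (-3.16, SE 0.36, limma adjusted p = 1.87e-08) and showed no called change with T0901317 (0.21, SE 0.36, limma adjusted p = 0.669). By mean TPM the fall with the diet was 55.6-fold in F/F and 54.0-fold in W/F. The fitted falls of F/F and W/F were not shown to differ (1.21, SE 0.51, limma adjusted p = 0.155). The F/F response to T0901317 was lower than the W/F response (-1.85, SE 0.51, limma adjusted p = 0.0115), a call that was lost on recovered read numbers (limma adjusted p = 0.235). In W/W livers Slc22a28 stood at 26.7, 30.8, 36.8 and 22.0 TPM on chow, at 15.6, 17.6, 13.3 and 21.8 TPM with vehicle and at 5.77, 2.10, 7.66 and 4.24 TPM with T0901317. The W/W diet difference of -0.74 was not called (limma adjusted p = 0.19), though all vehicle livers lay below all chow livers, and the T0901317 difference of -1.68 was not tested. The loss with the diet was larger in W/F than in W/W (-3.63, limma adjusted p = 9.4e-07) and larger in F/F than in W/W (-2.42, limma adjusted p = 0.000375).

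Slc22a30, the more abundant gene of the pair, kept a measurable level everywhere, from 19.1 to 246 TPM. W/F livers held 188, 246, 222 and 200.03 TPM on chow, 43.9, 37.3, 34.5 and 34.0 TPM with vehicle and 68.2, 48.2, 83.0 and 86.8 TPM with T0901317. It fell 5.72-fold by mean with the diet in W/F (-2.48, SE 0.17, limma adjusted p = 2.81e-13) and rose 1.91-fold with T0901317 (0.89, SE 0.17, limma adjusted p = 2.8e-05). F/F livers held 159, 106, 101 and 110 TPM on chow, 22.6, 25.6, 19.1 and 19.1 TPM with vehicle and 35.3, 46.3, 38.8 and 35.3 TPM with T0901317. The fall with the diet in F/F was 5.51-fold (-2.39, SE 0.17, limma adjusted p = 2.16e-12) and the rise with T0901317 1.80-fold (0.82, SE 0.17, limma adjusted p = 0.000547). The T0901317 rise was not shown to differ between F/F and W/F (-0.07, SE 0.23, limma adjusted p = 0.874). W/W livers held 161, 138, 202 and 142 TPM on chow, 86.3, 99.2, 92.4 and 118 TPM with vehicle and 64.5, 44.2, 67.9 and 60.9 TPM with T0901317. Slc22a30 fell with the diet also in W/W (-0.69, SE 0.17, limma adjusted p = 0.00588), less than in W/F (difference -1.80, limma adjusted p = 3.38e-07) and in F/F (difference -1.71, limma adjusted p = 2.38e-06). The T0901317 difference in W/W was -0.74 with no overlap and was not tested.

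Against W/W, both genes were lower in F/F in every treatment. In F/F against W/W, Slc22a28 was lower on chow (-1.49, limma adjusted p = 0.00126), with vehicle (-3.91, limma adjusted p = 4.43e-11) and with T0901317 (-2.02, limma adjusted p = 1.76e-05). Slc22a30 was lower with vehicle (-2.15, limma adjusted p = 1.38e-12), with T0901317 (-0.59, limma adjusted p = 0.003) and on chow (-0.44, limma adjusted p = 0.0304). The last call was lost without W/W chow replicate 3 (-0.33, limma adjusted p = 0.128), and also without W/W chow replicate 1 or F/F chow replicate 2, 3 or 4 (limma adjusted p from 0.0577 to 0.102). W/F differed from W/W with vehicle, where Slc22a28 was lower (-3.59, limma adjusted p = 6.66e-10) and Slc22a30 (-1.38, limma adjusted p = 2.23e-08), but neither was called on chow or with T0901317. The ratio of mean Slc22a30 to mean Slc22a28 was 5.52 in W/W chow, 5.81 in W/W vehicle and 12.0 in W/W T0901317 livers. It was 7.23, 68.3 and 11.3 in W/F and 11.1, 112 and 102 in F/F, in the same order of treatments. The single libraries of W/F vehicle ran from 31.1 to 198, so the ratio is loosely set where Slc22a28 is low. The gene most like Slc22a28 over the 36 livers was Slco1a1, an organic anion uptake carrier (r = 0.969), and the one most like Slc22a30 was Hao1, the glycolate oxidase of hepatocyte peroxisomes (r = 0.970).

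**Figure D2:**
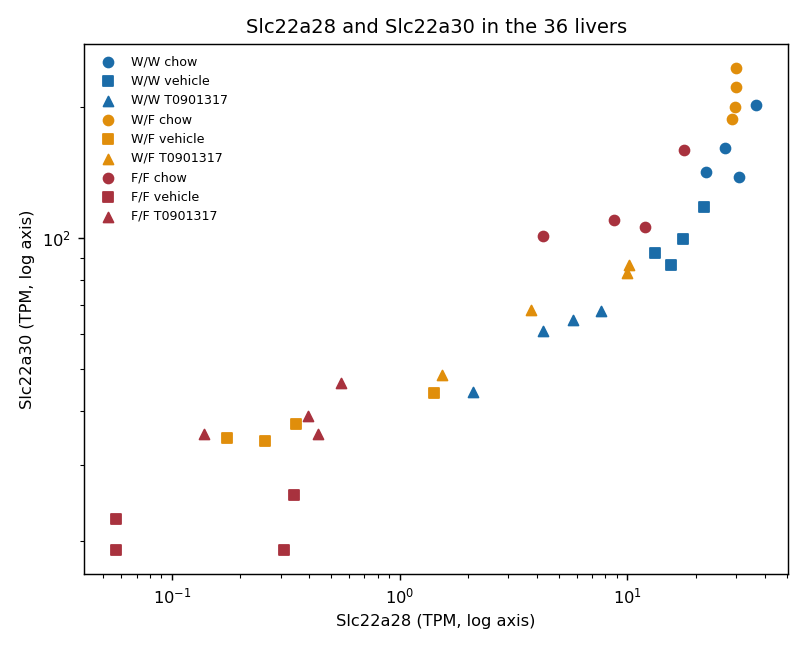
Slc22a30 against Slc22a28 in the 36 livers, both as TPM on log axes, with genotype by colour and treatment by symbol. W/W and W/F chow livers lie at the upper right, F/F chow livers to their left, and F/F vehicle livers at the lower left, with Slc22a28 from 0.0567 to 0.345 TPM.

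Slc22a27 (chr19:7864388-7966027, minus strand) was low, from 0.101 to 9.62 TPM, and went the other way. Its coding sequence is 97.3% identical to that of Slc22a29 and 91.7% to that of Slc22a30, so its counts too may be shared. In W/F livers it stood at 0.334, 1.97, 1.62 and 0.163 TPM on chow, at 1.84, 8.96, 8.10 and 6.68 TPM with vehicle and at 1.44, 1.08, 0.101 and 0.265 TPM with T0901317. It rose with the diet (1.84, SE 0.44, limma adjusted p = 0.000653) and fell with T0901317 (-2.03, SE 0.44, limma adjusted p = 0.000196), and 3 of the 4 vehicle livers stood far above the other 2 groups. F/F livers showed no called change with T0901317 (0.19, limma adjusted p = 0.759) or with the diet (-0.46, limma adjusted p = 0.394). The response to T0901317 was higher in F/F than in W/F by 2.23 (SE 0.63, limma adjusted p = 0.0138). F/F chow livers were unlike each other, at 0.726, 2.22, 9.62 and 9.48 TPM. Their level was above W/W chow (1.67, limma adjusted p = 0.00301) and above W/F chow (1.42, limma adjusted p = 0.0112), but the second call was lost without F/F chow replicate 3 (limma adjusted p = 0.0721) or 4 (limma adjusted p = 0.074), and the first when only the groups compared were fitted (limma adjusted p = 0.0531). With vehicle it was higher than in W/W in W/F (2.04, limma adjusted p = 0.00017) and in F/F (1.16, limma adjusted p = 0.0189). The F/F difference was not called after rescaling (0.68, limma adjusted p = 0.184) or without W/W vehicle replicate 4 or F/F vehicle replicate 4 (limma adjusted p = 0.055 and 0.0751). W/W livers held at most 1.91 TPM in any treatment.

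Slc22a3 (chr17:12418960-12507704, minus strand) was low, at 1.92 to 9.36 TPM, and higher in F/F chow livers. It stood at 8.97, 5.80, 6.21 and 9.36 TPM in F/F chow livers, against 2.89, 1.92, 3.40 and 3.51 TPM in W/W chow and 3.66, 3.00, 3.44 and 4.86 TPM in W/F chow. F/F chow livers lay above all other chow livers. The difference was 2.59-fold against W/W (1.12, SE 0.15, limma adjusted p = 1.08e-06) and 2.03-fold against W/F (0.85, SE 0.15, limma adjusted p = 6.82e-05), and both were called after rescaling (0.81 and 0.55). With vehicle Slc22a3 was 0.86 higher in F/F than in W/W (limma adjusted p = 8.56e-06), but after rescaling only 0.16 (limma adjusted p = 0.402), and the W/F difference of 0.49 (limma adjusted p = 0.00517) became -0.02. With T0901317 it stood at 5.80, 5.99, 5.89 and 4.72 TPM in W/W, above the 3.39, 3.33, 2.42 and 2.41 TPM of vehicle, a difference of 0.77 that was not tested. In F/F it fell with T0901317 from a mean of 6.04 to 3.74 TPM (-0.58, SE 0.15, limma adjusted p = 0.00507), with 1 T0901317 liver at 4.92 TPM above the lowest vehicle liver at 4.88 TPM, and was not called after rescaling (-0.33, limma adjusted p = 0.169). With T0901317 it was lower than in W/W both in W/F (-0.57, limma adjusted p = 0.0135) and in F/F (-0.49, limma adjusted p = 0.0064). Of the 4513 exon bases of Slc22a3 420 overlap exons of Plg, the plasminogen gene, on the opposite strand. Plg averaged 1252 to 2220 TPM over the groups, the F/F vehicle mean being the lowest and the W/W chow mean the highest. Whether strand was used in counting is not given in the sources used here, so reads of the overlap cannot be assigned, and the part of Plg in these values was not tested.

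Slc22a18 (chr7:143473736-143499334, plus strand) and Slc22a23 (chr13:34179158-34345182, minus strand) varied little on the deposited scale. The highest group mean of Slc22a18 was 1.42-fold the lowest (157 against 110 TPM), and that of Slc22a23 1.44-fold (35.8 against 24.9 TPM). Slc22a18 rose with the diet in W/F (0.51, limma adjusted p = 0.000141), where chow livers held 94.9 to 121 TPM and vehicle livers 150.0 to 164 TPM, and in F/F (0.26, limma adjusted p = 0.0374). After rescaling the W/F value was 0.01 (limma adjusted p = 0.923) and the F/F value -0.08. The F/F call was also lost without F/F chow replicate 2 (limma adjusted p = 0.262) or F/F vehicle replicate 1 (limma adjusted p = 0.214). Slc22a23 fell with the diet in W/W (-0.41, limma adjusted p = 0.036), from 29.5 to 39.2 TPM on chow to 19.97 to 30.8 TPM with vehicle. That call was lost without W/W chow replicate 3 or 4 or W/W vehicle replicate 1 or 3 (limma adjusted p from 0.0856 to 0.176). In W/F, Slc22a23 fell with T0901317 (-0.46, limma adjusted p = 0.00318), but was 0.12 higher after rescaling. With vehicle it was higher than in W/W in W/F (0.51, limma adjusted p = 0.00106) and in F/F (0.38, limma adjusted p = 0.0105), and after rescaling it was lower in F/F (-0.45, limma adjusted p = 0.000371) and not called in W/F (-0.12, limma adjusted p = 0.323). The F/F call was lost without W/W vehicle replicate 1 (limma adjusted p = 0.0629). After rescaling both were lower in F/F than in W/W, Slc22a18 with vehicle by a fitted -0.86 (limma adjusted p = 7.2e-08, against -0.01 and limma adjusted p = 0.953 as deposited) and Slc22a23 on chow by -0.39 (limma adjusted p = 0.00376, against -0.02 and limma adjusted p = 0.913). The genes most like Slc22a3, Slc22a18, Slc22a23 and Slc22a27 were Rhbg, an ammonium transporter (r = 0.773), Ephx1, the microsomal epoxide hydrolase (0.812), Uhrf1bp1 (0.857) and Ccdc152 (0.840).

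**Figure D3:**
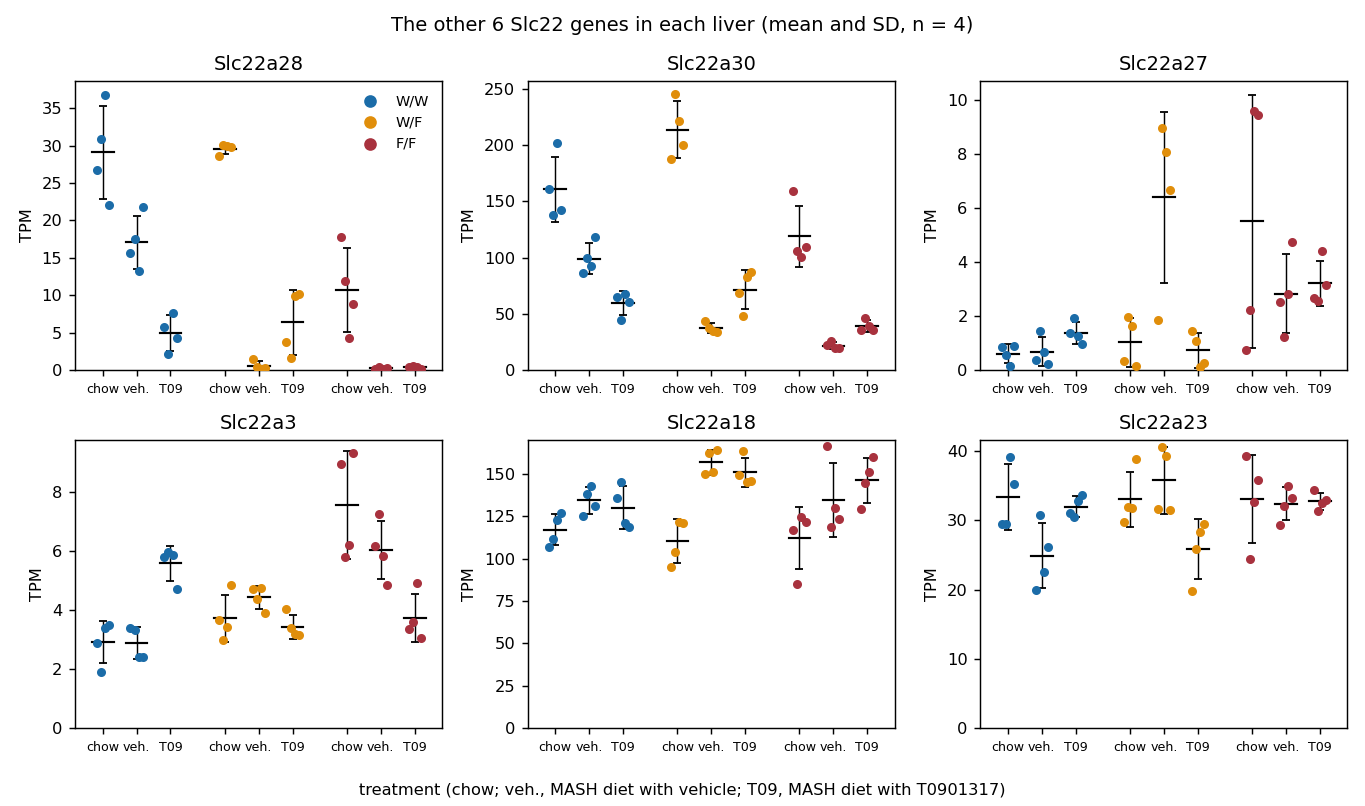
Slc22a28, Slc22a30, Slc22a27, Slc22a3, Slc22a18 and Slc22a23 in each of the 36 livers as TPM (linear axes from 0, a scale of its own for each gene), by genotype (colour) and treatment. Points are livers, long bars the mean and error bars the SD of 4 livers. Slc22a28 and Slc22a30 are low in W/F and F/F vehicle livers, while Slc22a18 and Slc22a23 keep group means within 1.42-fold and 1.44-fold in deposited TPM.

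Counted together, the 7 genes did not move as a block. With T0901317 in W/F, Slc22a7, Slc22a28 and Slc22a30 rose, Slc22a23 and Slc22a27 fell, and 2 genes were not called, where 65.9% of all tested genes were called, 6.59% higher and 59.3% lower. In F/F, Slc22a7 and Slc22a30 rose, Slc22a3 fell and 4 were not called, against 35.1% of all genes called, 3.95% higher and 31.2% lower. With the diet in W/F, 3 of 7 genes fell and 2 rose (61.0% of all genes called, 52.4% higher and 8.53% lower), and in F/F 3 fell and 1 rose (55.8% called, 46.5% higher and 9.27% lower). The genes that fell were Slc22a7, Slc22a28 and Slc22a30 in both. In W/W 2 of the 6 tested genes fell with the diet, Slc22a23 and Slc22a30, against 12.9% of all genes called, 2.59% higher and 10.3% lower. The median member differed with the diet by 0.11 in W/F and -0.46 in F/F, and with T0901317 by -0.05 in W/F and 0.19 in F/F, beside the medians of all genes given above.

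Between genotypes on chow, none of the 7 genes was called in W/F against W/W by limma or by any alternative setting run, where 0.487% of all genes were called. At an unadjusted p under 0.05 limma gave 2 of 7, Slc22a7 and Slc22a30, and 5.61% of all genes tested. In F/F against W/W on chow 4 of 7 were called (46.7% of all genes), and in F/F against W/F 4 of 7 (41.4%). With vehicle, 5 of 6 tested genes were called both in W/F against W/W (68.5% of all genes) and in F/F against W/W (76.5%), and 1 of 7, Slc22a30, in F/F against W/F (-0.77, limma adjusted p = 0.00147; 21.3%). With T0901317, 1 of 6 was called in W/F against W/W (9.88% of all genes), 3 of 6 in F/F against W/W (63.2%) and 5 of 7 in F/F against W/F (62.6%). The differences of T0901317 responses between F/F and W/F were called for 3 of 7 genes (19.2% of all genes). The differences of diet responses were called for 4 of 6 genes in W/F against W/W (54.6%), 2 of 6 in F/F against W/W (46.0%) and 1 of 7 in F/F against W/F (6.83%). The members were chosen with earlier results known, as given above. With 6 or 7 genes to a count, nothing particular to the family is read from these shares. Rescaling evened the split of all called genes, from 1097 higher and 9874 lower with T0901317 in W/F to 3909 and 4547, and from 8725 higher and 1420 lower with the diet in W/F to 4664 and 4453. In F/F the split went from 658 higher and 5183 lower to 1378 and 1351 with T0901317, and from 7737 and 1542 to 4301 and 3514 with the diet.

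**Figure D4:**
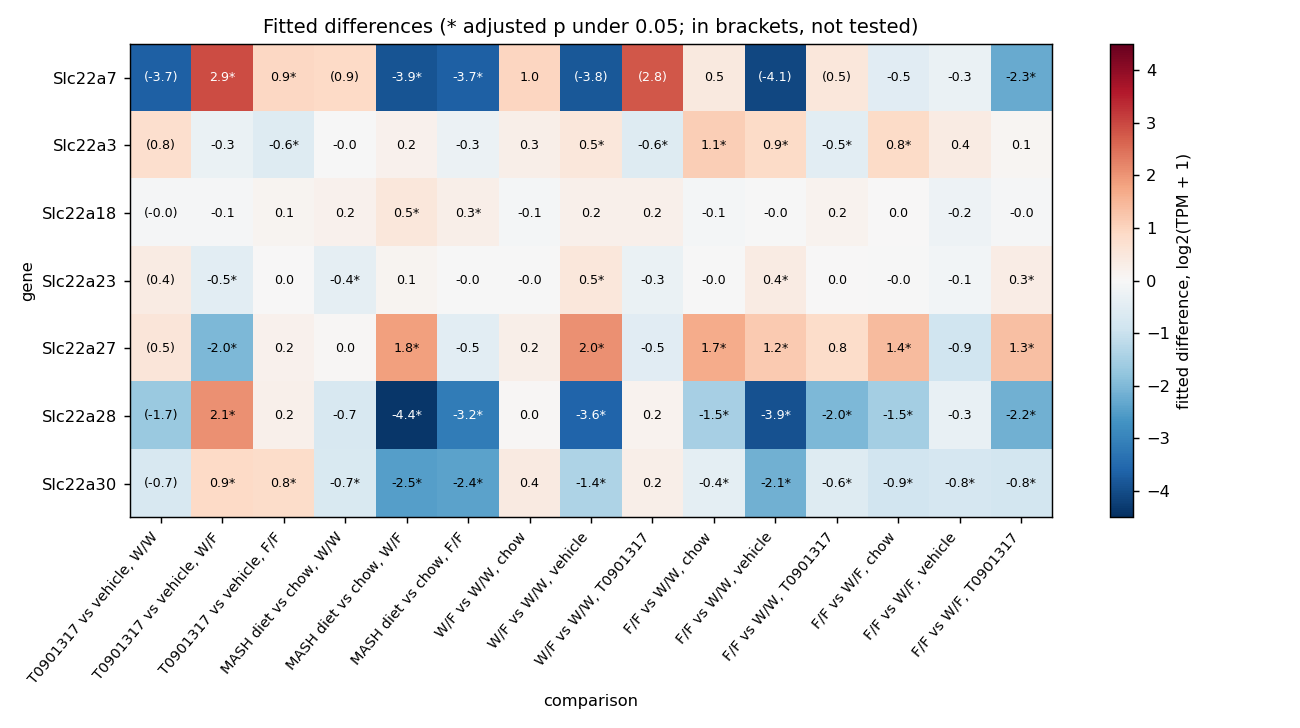
Fitted differences of log2(TPM + 1) of the 7 genes (rows) in 15 comparisons of 2 groups (columns), red for higher and blue for lower in the first-named group. Stars mark an adjusted p under 0.05 and brackets differences that were not tested; Slc22a7 is -3.7 with T0901317 in W/W and 2.9 in W/F.

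Of the other Slc22 genes 17 are reported here, and the counts cover these alone. Of them 7 passed the filter, and the remaining 10 were under it, among them Slc22a6 and Slc22a8, the organic anion transporters of the kidney. With the diet in W/F 3 of the 7 rose (Slc22a17, Slc22a21 and Slc22a29), and in F/F 1 rose and 1 fell, Slc22a17 and Slc22a26. Of all tested genes 52.4% were called higher and 8.53% lower in W/F, and 46.5% and 9.27% in F/F. With T0901317 in W/F 1 rose, Slc22a5, and 3 fell, Slc22a17, Slc22a21 and Slc22a29, where 6.59% of all genes were called higher and 59.3% lower. The Slc22a21 calls were lost after rescaling (limma adjusted p = 0.227 with the diet and 0.198 with T0901317), as was the Slc22a17 fall (limma adjusted p = 0.136). Slc22a26 fell by 0.93 with the diet in F/F (limma adjusted p = 0.011). Slc22a17, a receptor for lipocalin 2, rose with the diet in F/F (1.49, limma adjusted p = 4.93e-06) and in W/F (1.14, limma adjusted p = 0.000143). Slc22a5, the carnitine transporter OCTN2, rose with T0901317 in W/F (0.48, limma adjusted p = 0.000611). Slc22a29, the near copy of Slc22a27, rose with the diet in W/F (0.93, limma adjusted p = 0.0047) and fell with T0901317 (-1.10, limma adjusted p = 0.000955).

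Of 12 other organic ion carriers of the liver, all of which passed the filter, 4 rose and 4 fell with the diet both in W/F and in F/F, while in W/W 3 fell. Among all tested genes 52.4% were called higher and 8.53% lower in W/F, 46.5% and 9.27% in F/F, and 2.59% and 10.3% in W/W. With T0901317 3 rose and 4 fell in W/F, and 2 rose and 2 fell in F/F. The shares of all genes were 6.59% higher and 59.3% lower in W/F, and 3.95% and 31.2% in F/F. Slco1a1, an uptake carrier for bile acids and other organic anions, moved most. Its mean was 260 TPM in W/F chow, 3.13 in W/F vehicle and 105 in W/F T0901317 livers. Slco1a1 fell with the diet in W/F (-6.01, SE 0.40, limma adjusted p = 2.44e-13) and in F/F (-4.52, SE 0.40, limma adjusted p = 2.51e-10), and rose with T0901317 in W/F (4.43, SE 0.40, limma adjusted p = 2.31e-10). Slco1b2, another hepatocyte uptake carrier, fell less with the diet (-1.06 in W/F and -0.91 in F/F, limma adjusted p = 3.15e-06 and 4.01e-05). The export pumps Abcc4 and Abcb1a rose with the diet in W/F (2.95 and 2.45, limma adjusted p = 3.19e-10 and 9.4e-08) and in F/F (1.16 and 0.88, limma adjusted p = 0.000951 and 0.019), where the Abcb1a call was lost after rescaling (0.56, limma adjusted p = 0.13). In W/F both fell with T0901317 (-1.98 and -1.91, limma adjusted p = 5.74e-07 and 5.62e-06). The largest fall in W/W with the diet was that of Slco1a4 (-1.46, limma adjusted p = 0.000496).

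**Figure D5:**
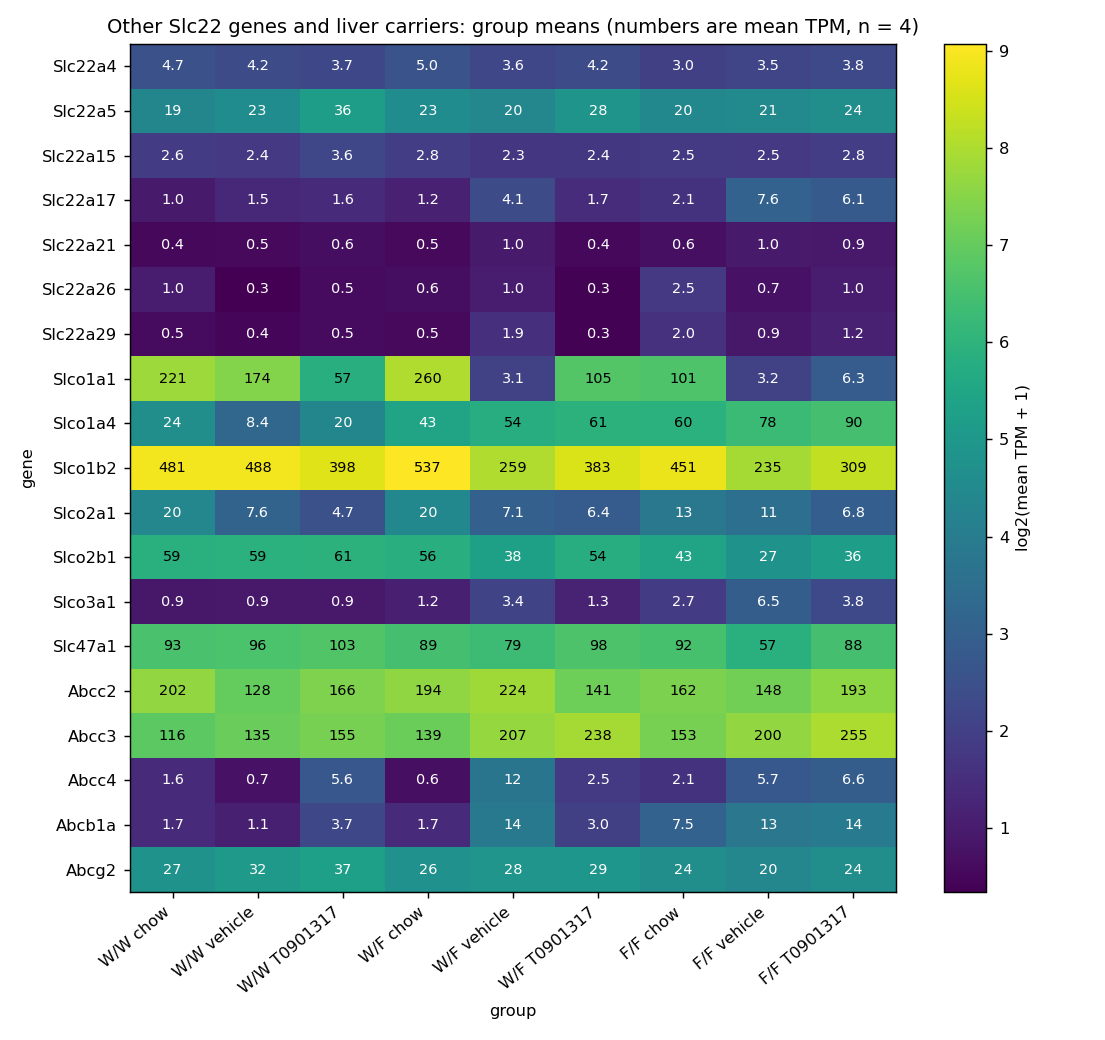
Group means of 7 other Slc22 genes and 12 other carriers that passed the filter (rows) in the 9 groups (columns). Colour is log2 of the mean TPM plus 1 and the printed numbers are mean TPM of 4 livers; Slco1a1 is at 260 TPM in W/F chow and 3.13 TPM in W/F vehicle livers.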

How the data were processed

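PolyA RNA of 36 livers was measured. The table deposited by the authors holds TPM for 49315 genes, without replicates pooled. Per the submitters' processing notes the build was GRCm38 (mm10) and the tools included Trimmomatic 0.36, STAR 2.5.2b and featureCounts of Subread 1.5.2. Their settings, strand use and handling of reads with several matches are not given in the sources used here.

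The members and gene lists were chosen with earlier results of these data known. The 16638 genes that reached 1 TPM in 4 or more libraries were fitted as log2(TPM + 1) with limma 3.58.1 in R 4.3.3, with variances that follow the mean, 1 mean for each of 9 groups and Benjamini-Hochberg adjustment within each of 18 tested contrasts (two-sided). The script was tested on simulated data. No p is given for T0901317 in W/W, or for Slc22a7 wherever W/W vehicle or W/W T0901317 livers enter. Replicates are separate mice as the labels give them. The text names all 7 genes, the genes most like Slc22a7 among its nearest 5 (the nearest 1 for each other gene, among tested genes with a mean of at least 5 TPM in a group) and, of each list, the largest changes and known carriers. Some items that this rule names are not reported here.

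Depth was recovered from the spacing of TPM between 0.02 and 0.4, with exon lengths of GENCODE M21 (49056 genes matched, 259 did not). Of values under 20 reads 93.7% to 95.7% were whole within 0.1 of a read in each library, where 20% would be by chance. Alternatives were a pseudocount of 0.1, other filters, rescaled TPM, a replicate block, array quality weights, recovered reads with voom, fits of only the groups compared, and leaving out each library.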

Additional observations from a re-analysis of the deposited data

Results flagged for a closer look

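Within groups of 4 livers, 1 liver stood apart from the other 3 in 3 of 63 combinations of gene and group (a gap past Dixon's 95% critical value), where chance gives about 1 in 20. These were Slc22a3 in a W/W T0901317 liver at 4.72 TPM, Slc22a28 in a W/F vehicle liver at 1.41 TPM and Slc22a30 in an F/F chow liver at 159 TPM.

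For some genes the T0901317 and vehicle livers did not overlap in W/W or in a mutant genotype, and the directions were opposite. The difference between these responses was not tested, and Slc22a7 was chosen by its W/W direction. Among all 16638 tested genes, 2013 lay higher and 736 lower without overlap with T0901317 in W/W. These counts were 914 and 8589 in W/F, and 684 and 4857 in F/F. Genes without overlap in opposite directions were not counted, so how common such opposite responses are is not given. Against the W/W response, the log2 response of Slc22a7 differed by 6.60 (W/F) and 4.63 (F/F). For Slc22a30 they differed by 1.63 and 1.56, and for Slc22a28 by 3.74 in W/F.

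Other responses differed between genotypes by limma's test of the difference itself. The T0901317 response in F/F minus that in W/F was -1.98 for Slc22a7, 2.23 for Slc22a27 and -1.85 for Slc22a28. The Slc22a28 call was lost with voom on recovered reads, as given above. Its F/F levels rest on 14 recovered reads with vehicle and 31 with T0901317. The diet response in W/F minus that in W/W was 0.52 for Slc22a23, 1.79 for Slc22a27, -3.63 for Slc22a28 and -1.80 for Slc22a30. In F/F minus W/W it was -2.42 for Slc22a28 and -1.71 for Slc22a30, and in F/F minus W/F it was -2.30 for Slc22a27. After rescaling the Slc22a23 difference became -0.08, and the Slc22a27 difference of W/F minus W/W was not called (1.40, limma adjusted p = 0.0711), nor was it with voom on recovered reads (limma adjusted p = 0.147). The Slc22a27 difference of F/F minus W/F lost its call with a pseudocount of 0.1, with voom on recovered reads and with only the groups compared (limma adjusted p = 0.0515, 0.0758 and 0.0996). It also lost it without W/F chow replicate 1, W/F vehicle replicate 2 or 3, F/F chow replicate 3 or 4, or F/F vehicle replicate 2 (limma adjusted p from 0.0504 to 0.0695).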

How the results depend on the processing

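The T0901317 and diet responses of Slc22a7 kept their direction without any single library: -3.92 to -3.49 for T0901317 in W/W, 2.73 to 3.15 in W/F and 0.77 to 1.10 in F/F, and for the diet -4.09 to -3.68 in W/F and -3.83 to -3.50 in F/F. Among differences called on either scale, rescaled TPM turned directions for 3 genes, to -0.024 for Slc22a3 in W/F against W/W with vehicle. Slc22a18 came to 0.54 (T0901317, W/F), -0.081 (diet, F/F), -0.43 (W/F against W/W, vehicle), -0.35 (F/F against W/W, T0901317) and -0.33 (F/F against W/F, chow). Slc22a23 came to 0.12 (T0901317, W/F), -0.38 (diet, W/F), -0.12 and -0.45 (vehicle, each mutant genotype against W/W), -0.47 and -0.17 (F/F against W/W and W/F, T0901317) and -0.084 (diet response, W/F minus W/W). Differences called on neither scale turned as well, such as those of Slc22a3 with T0901317 (-0.29 to 0.19) and with the diet (0.21 to -0.19) in W/F. Rescaling also started calls. In F/F Slc22a18 came to 0.39 with T0901317 (limma adjusted p = 0.0137). With the diet in F/F Slc22a3 came to -0.55 and Slc22a23 to -0.35 (limma adjusted p = 0.00588 and 0.00592). In F/F against W/F with T0901317 Slc22a18 came to -0.58 (limma adjusted p = 0.000103). The cause was not tested.

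The number of the 7 genes called moved by over 1.5 times in the following cases, and by 1 or 2 genes in others. After rescaling it went from 1 to 2 in W/F against W/W with T0901317, 3 to 5 in F/F against W/W with T0901317, 4 to 7 and 1 to 3 in F/F against W/F on chow and with vehicle, and 4 to 2 for the diet response of W/F minus W/W. With voom on recovered reads it went from 5 to 3 in F/F against W/W with vehicle, 4 to 2 for the same diet response and 1 to 0 for that of F/F minus W/F. With only the groups compared it went from 2 to 1 for the diet in W/W, 4 to 2 in F/F against W/W on chow and 1 to 0 for the diet response of F/F minus W/F. With array weights it went from 2 to 1 for the diet in W/W, 1 to 2 in F/F against W/F with vehicle and 1 to 4 for the diet response of F/F minus W/F. With no filter it went from 2 to 1 for the diet in W/W, and with a pseudocount of 0.1 from 1 to 0 for the diet response of F/F minus W/F. Without single libraries it moved by over 1.5 times in 3 comparisons, and elsewhere by at most 1 gene. It went from 2 to 1 for the diet in W/W, 1 to 2 in F/F against W/F with vehicle and 1 to 0 for the diet response of F/F minus W/F.

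Counts over all genes moved by over 1.5 times after rescaling (T0901317 in F/F 5841 to 2729, F/F against W/W on chow 7764 to 4963, F/F against W/F 3552 to 1758 with vehicle and 10409 to 6689 with T0901317, diet response of F/F minus W/W 7654 to 4469). With array weights W/F against W/W went from 81 to 132 on chow and 1644 to 2920 with T0901317, and the F/F minus W/F responses from 3191 to 5156 (T0901317) and 1136 to 2865 (diet). With only the groups compared the diet in W/W went from 2141 to 580 and W/F against W/W on chow from 81 to 3. Single libraries also moved such counts: the diet in W/W came to 1266 without W/W chow replicate 2 and 1091 without W/W vehicle replicate 1, W/F against W/W on chow to 53 without W/W chow replicate 4, and T0901317 in F/F to 3244 without F/F T0901317 replicate 3. The F/F minus W/F responses came to 1907 (T0901317) without W/F T0901317 replicate 1, and for the diet to 746 without W/F vehicle replicate 3, 703 without F/F chow replicate 3 and 722 without F/F chow replicate 4.

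Replicate numbers did not pair the livers: same-numbered livers of 2 groups correlated by -0.126 to 0.123. With the replicate number as a block, W/F against W/W on chow called 73 genes against 81, and 0 of the 7 members both ways, and no call of a member changed. Depth limits Slc22a28 in F/F vehicle livers, with 1 to 6 recovered reads each, in F/F T0901317 livers (3 to 12) and in W/F vehicle livers (3 to 37). It also limits Slc22a27, with 2 to 21 reads in W/W chow and 5 to 31 in W/W vehicle livers. In W/F livers Slc22a27 had 3 to 36 reads on chow, 52 to 164 with vehicle and 2 to 35 with T0901317.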
